A study of Mus musculus with 12 samples.

Results

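Endothelial and mural cell markers were followed through 12 RNA-seq libraries of astrocytes isolated from mouse cerebral cortex. The set holds 32 genes out of 45777 in the table. They were chosen by symbol from what is known of the blood vessel wall, with earlier results of these data known. It comprises 21 endothelial genes and 11 genes of mural cells and fibroblasts. All 32 were in the table and passed the filter on low counts. Animals were homozygous for a floxed allele of Nr3c1, the gene for the glucocorticoid receptor, as the labels of the first replicate of each group give it, and received 4-OHT (4-hydroxytamoxifen) on postnatal days 5 to 7. AGR cKO animals carried Aldh1l1-CreERT2 as well (same labels), a tamoxifen-activated Cre under the promoter of an astrocyte gene, and Cre- animals carried no Cre. Pups were reared undisturbed (control) or separated from the dam for 3 h a day on postnatal days 1 to 14 (ESD). Cells were taken at postnatal day 14 by immunopanning and magnetic beads, giving 3 libraries for each of the 4 combinations of genotype and rearing, named Cre- or AGR cKO with control or ESD.

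Brain capillaries are tubes of endothelial cells joined by tight junctions, which together with selective transporters form the blood-brain barrier. Pericytes sit on the capillary wall inside the basement membrane, smooth muscle cells wrap the larger vessels, and perivascular and meningeal fibroblasts lie outside them. Astrocyte endfeet cover nearly the whole outer surface of these vessels, so vessel fragments can come along when astrocytes are isolated.

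Promoters of 4 members are shown because they stand for the pair of patterns described below, Cldn5 and Tie1 for endothelium and Rgs5 and Vtn for pericytes. Each is the 250 bases before the gene's start, 5′ to 3′ on the gene's strand, from RefSeq on GRCm38.p6. Motifs were searched on both strands, and capitals mark their matches. GGAAG is the core bound by factors of the ETS family. The letters AACAAT form the core bound by the SOX family. For zinc finger factors of the GATA family the motif searched was AGATAA. None of these motifs overlaps another in the sequences shown. They lie at chr16:18776597-18776846 on the plus strand, chr4:118489850-118490099 on the minus strand, chr1:169655251-169655500 on the plus strand and chr11:78498870-78499119 on the plus strand.
Cldn5: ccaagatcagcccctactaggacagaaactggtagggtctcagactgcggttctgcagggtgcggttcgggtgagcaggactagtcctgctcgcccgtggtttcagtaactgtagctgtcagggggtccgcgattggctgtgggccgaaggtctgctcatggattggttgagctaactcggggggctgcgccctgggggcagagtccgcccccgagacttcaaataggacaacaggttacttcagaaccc
Tie1: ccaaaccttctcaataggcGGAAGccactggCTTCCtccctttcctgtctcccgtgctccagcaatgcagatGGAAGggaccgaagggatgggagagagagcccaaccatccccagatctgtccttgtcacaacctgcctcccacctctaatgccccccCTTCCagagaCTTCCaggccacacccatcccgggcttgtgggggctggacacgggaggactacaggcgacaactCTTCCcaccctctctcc
Rgs5: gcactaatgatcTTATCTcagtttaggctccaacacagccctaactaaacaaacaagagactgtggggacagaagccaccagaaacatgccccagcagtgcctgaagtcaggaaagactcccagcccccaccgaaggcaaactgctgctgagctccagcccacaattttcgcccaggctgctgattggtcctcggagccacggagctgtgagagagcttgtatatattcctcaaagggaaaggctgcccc
Vtn: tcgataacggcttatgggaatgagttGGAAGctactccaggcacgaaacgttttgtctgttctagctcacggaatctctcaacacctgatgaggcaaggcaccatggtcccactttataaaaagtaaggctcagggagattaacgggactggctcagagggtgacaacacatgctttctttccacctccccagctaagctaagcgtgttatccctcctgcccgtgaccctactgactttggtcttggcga
Cldn5 had 0 matches and Tie1 had 6, all to GGAAG. Rgs5 had 1 match, to AGATAA, and Vtn had 1, to GGAAG. A promoter entry was found for 19 of the 32 members. GGAAG occurred in 10 of 14 endothelial and 3 of 5 mural and fibroblast promoters, against 64.1% of 32851 mouse promoters of that length. AACAAT occurred in 3 of 14 and 0 of 5, against 9.42%, and AGATAA in 1 of 14 and 1 of 5, against 9.99%. A match is a run of letters and does not show that a factor binds there.

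Libraries held 42603546 to 52130081 counts. Nr3c1 lay between 199 and 237 CPM (counts scaled to a common library total with TMM factors) in the 6 Cre- libraries and between 66.6 and 108 CPM in the 6 AGR cKO libraries, so the groups labelled by genotype did not overlap in the targeted gene. Summed CPM of 20 astrocyte markers ranged from 50323 to 71677. A single library, Cre- control 1, stood apart in endothelial genes. It had the highest level of all 21 endothelial members, by a median factor of 5.12 over Cre- control 2 and 3.06 over Cre- control 3, together with the lowest astrocyte sum (50323) and the highest microglial sum (1189). Its mural and fibroblast sum ranked 4 of 12, and it was the highest library for 2 of these 11 members. Medians over the members that rest on it are given with and without it. Values of single genes and counts of members include it unless stated otherwise.

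Levels per transcript length (TPM, reads scaled by transcript length and library total) differed widely between members. Rgs5, a regulator of G-protein signalling and a pericyte hallmark, averaged 1674 TPM over the 12 libraries and ranked 46 among all genes. Vtn, which encodes vitronectin, averaged 942 TPM at rank 92, and Pdgfrb, the receptor through which endothelial PDGF-B recruits pericytes, 294 TPM at rank 403. Cldn5, the main claudin of the brain's endothelial tight junctions, was the endothelial member with the highest mean at 172 TPM and rank 846. Itm2a followed at 118 TPM and Ly6c1 at 103 TPM. The lowest mean among endothelial members was 10.7 TPM for Sox17, and the lowest of all was 3.15 TPM for Lum, a collagen-binding proteoglycan of fibroblasts, whose counts ran from 44 to 233. Rgs5 alone made up 50.8% to 60.7% of the summed CPM of the 11 mural and fibroblast members in a library. All of these are vessel genes measured in preparations labelled as astrocytes.

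**Figure D1:**
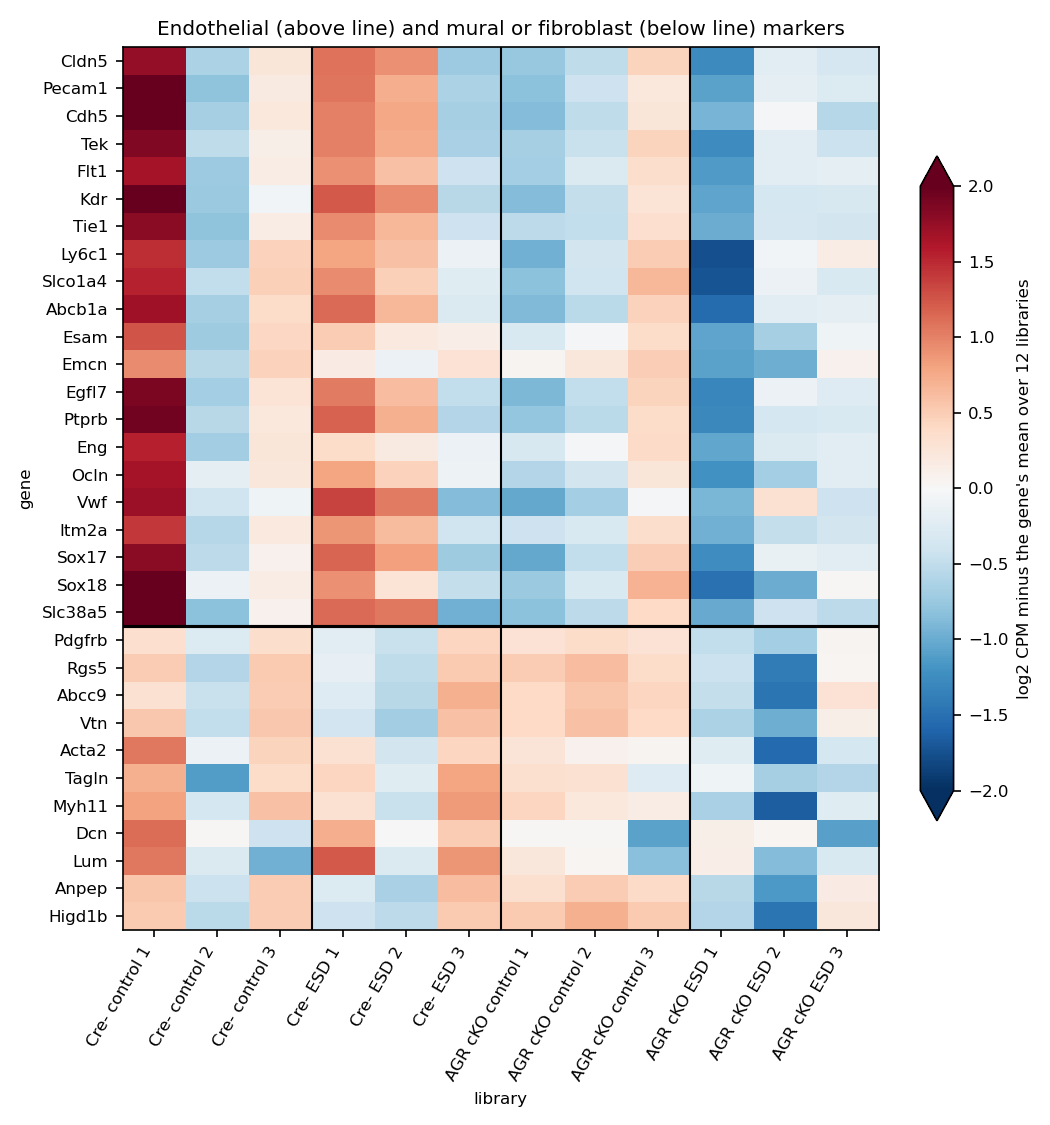
Each row is a member and each column a library, with colour giving log2 CPM minus the gene's mean over the 12 libraries, red above and blue below, limited to 2 either way. Endothelial genes above the horizontal line share Cre- control 1 as their highest library, while most genes below it are highest in other libraries and lowest in AGR cKO ESD 2.

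The endothelial members moved through the libraries nearly as a block. Cre- control 1 was the highest library for 21 of 21, and AGR cKO ESD 1 the lowest for 20 of 21, the exception being Vwf, which was lowest in AGR cKO control 1. In 16 of 21 the 3 highest libraries were Cre- control 1, Cre- ESD 1 and Cre- ESD 2. The exceptions were Slco1a4, Esam, Emcn, Eng and Sox18. The ratio of the highest to the lowest library ran from 4.05 for Emcn to 11.9 for Sox18, with a median of 8.22. Summed over the 21 genes, CPM was 3435, 671 and 1200 in replicates 1, 2 and 3 of Cre- control and 2036, 1631 and 782 in those of Cre- ESD. AGR cKO control had sums of 650, 804 and 1337 CPM, and AGR cKO ESD 461, 872 and 859 CPM. The range within Cre- control was wider than that of the 4 group means, which were 1769 ± 1467, 1483 ± 640, 930 ± 361 and 731 ± 234 (SD, n = 3) in that order. In bulk RNA, fewer cells of a type and less RNA per cell cannot be told apart.

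**Figure D2:**
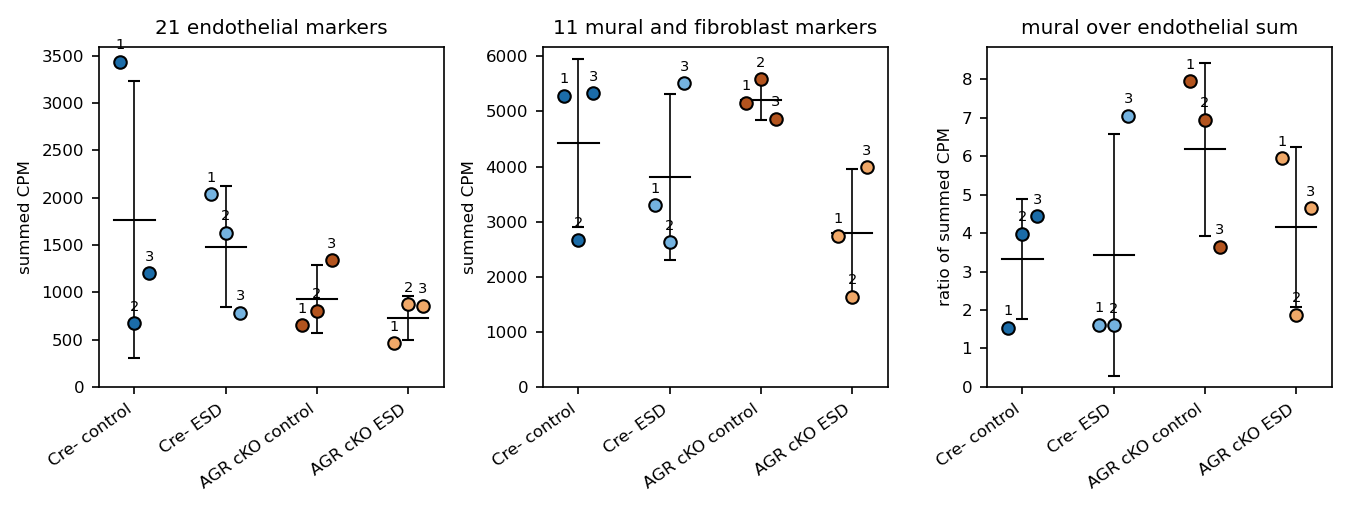
Points are libraries, numbered by replicate, with summed CPM of the endothelial members at left, of the mural and fibroblast members in the middle, and their ratio at right; black lines are group means and bars 1 SD (n = 3). Cre- control 1 stands at 3435 in the left panel, and AGR cKO ESD 2 lies at 1638 in the middle one.

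Among junction genes, Cldn5 had 235, 44.6 and 82.2 CPM in Cre- control 1, 2 and 3, and 147, 130.2 and 41.6 CPM in Cre- ESD. It had 40.8, 48.7 and 94.3 CPM in AGR cKO control and 28.6, 59.9 and 54.8 CPM in AGR cKO ESD. The genotypes overlapped under both rearing conditions, because Cre- control 2 and Cre- ESD 3 were as low as AGR cKO libraries. For Ocln, which encodes occludin, a second transmembrane protein of tight junctions, the Cre- control libraries had 43.3, 11.9 and 16 CPM and the Cre- ESD libraries 23.5, 18.8 and 12.7. It was 9.07, 10.6 and 16 in AGR cKO control and 5.88, 8.5 and 11.7 in AGR cKO ESD. Under ESD the highest AGR cKO library lay just under the lowest Cre- library, and in control the genotypes overlapped. Ocln had the smallest p among the 32 members for genotype averaged over rearing, with a log2 fold change of -1.04 ± 0.31 (SE) and an adjusted p of 0.0928 in edgeR's quasi-likelihood test. Cdh5, the cadherin of endothelial adherens junctions, Pecam1 (CD31), an adhesion molecule at endothelial contacts, and Esam, another one, had averaged log2 fold changes of -1.13 ± 0.43, -1.11 ± 0.44 and -0.66 ± 0.28. With 1 library left out, the value ran from -1.33 to -0.57 for Cdh5 and from -1.32 to -0.54 for Pecam1.

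The receptors include the VEGF receptors Flt1 and Kdr and both Tie receptors. Flt1 is VEGF receptor 1, which binds VEGF tightly and signals little, and Kdr is VEGF receptor 2, which carries most of the angiogenic signal. Tek (Tie2) binds angiopoietins, Tie1 pairs with it, and Ptprb (VE-PTP) is the phosphatase that dampens it. Ptprb stood at 440.1, 79.0 and 134 CPM in Cre- control, 261, 189 and 76.7 in Cre- ESD, 67.6, 79.6 and 149 in AGR cKO control, and 47.3, 90.1 and 93.4 in AGR cKO ESD. Its levels overlapped between genotypes in control and under ESD. Eng (endoglin), a co-receptor for TGF-beta family ligands, stood at 279, 58.8 and 113 CPM in Cre- control and 124, 108 and 87.8 in Cre- ESD. In AGR cKO control it stood at 76.8, 93.5 and 124 CPM, and in AGR cKO ESD at 46.6, 78.1 and 81.6. Under ESD the 3 AGR cKO libraries all lay below the 3 Cre- libraries for Eng, which differed least among the 6 genes of this role by genotype (averaged log2 fold change -0.62 ± 0.31, adjusted p = 0.292 in edgeR). Kdr differed most, at -1.21 ± 0.45 (adjusted p = 0.160 in edgeR), and its value ran from -1.42 to -0.59 with 1 library left out.

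Transporters mark the barrier itself. Slco1a4 encodes an organic anion transporter, Abcb1a the efflux pump P-glycoprotein, and Slc38a5 a neutral amino acid transporter. Slco1a4 had 196, 47.7 and 93.4 CPM in Cre- control, 129.6, 93.1 and 56.8 in Cre- ESD, 38.3, 51.0 and 106 in AGR cKO control and 20.3, 62.0 and 54.6 in AGR cKO ESD. Slc38a5 had 59.5, 6.30 and 11.8 CPM in Cre- control, 24.6, 23.2 and 5.71 in Cre- ESD, 6.33, 7.78 and 14.7 in AGR cKO control and 5.56, 8.34 and 7.76 in AGR cKO ESD. Both overlapped between genotypes, and Slc38a5 in Cre- control 1 was 9.45 times that in Cre- control 2, the widest gap of the 21 genes. Its averaged log2 fold change by genotype was -1.37 ± 0.52 (adjusted p = 0.169 in edgeR), the most negative of the 32 members.

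Sox17 and Sox18 encode related transcription factors of endothelial and arterial identity. Sox17 had 40.1, 8.03 and 12.2 CPM in Cre- control, 25.9, 20.2 and 7.06 in Cre- ESD, 5.63, 8.17 and 16.3 in AGR cKO control and 4.88, 10.3 and 9.79 in AGR cKO ESD. Sox18 had 25.9, 5.67 and 6.75 CPM in Cre- control, 11.5, 7.41 and 4.4 in Cre- ESD, 3.66, 4.95 and 9.97 in AGR cKO control and 2.17, 3.06 and 6.24 in AGR cKO ESD. Their averaged log2 fold changes by genotype were -1.05 ± 0.44 and -1.04 ± 0.44, both with an adjusted p of 0.211 in edgeR, and genotypes overlapped for both.

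The other endothelial members are Ly6c1, a surface antigen, Emcn (endomucin), a sialomucin of venous and capillary endothelium, Egfl7, a secreted vessel protein, Vwf (von Willebrand factor), richest in larger vessels and veins, and Itm2a, a membrane protein. Itm2a had 158, 39.7 and 67.7 CPM in Cre- control, 109.7, 91.8 and 44.9 in Cre- ESD, 44.5, 48.0 and 75.6 in AGR cKO control and 30.4, 42.4 and 46.1 in AGR cKO ESD. Under ESD only the highest AGR cKO library, at 46.1 CPM, overlapped the Cre- range, which began at 44.9. Emcn behaved least like the rest: its level in Cre- ESD 3 was 1.10 times that in Cre- ESD 1, where the other 20 had ratios of 0.216 (Vwf) to 0.773 (Esam). Vwf was the endothelial member with a log2 fold change above 0 for stress in both genotypes, at 0.05 ± 0.61 in Cre- and 0.26 ± 0.61 in AGR cKO.

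No member was called (adjusted p under 0.05) in any of the 7 comparisons by edgeR: stress within each genotype, genotype within each rearing condition, each averaged over the other factor, and their interaction. For all genes the share called was 0.0%, 0.0%, 0.0157%, 1.04%, 3.49%, 0.0% and 0.0% for stress in Cre-, stress in AGR cKO, genotype in control, genotype in ESD, genotype averaged, stress averaged and the interaction. At an unadjusted p under 0.05 the member counts were 0, 7, 1, 4, 20, 6 and 0 in the same order, all with negative log2 fold changes, beside 4.49%, 4.33%, 5.94%, 7.68%, 11.3%, 6.16% and 1.93% of all genes with such a p and a negative value. By genotype, 4.28% of all genes in control and 7.92% under ESD had such a p and a positive value, beside 0 members. Of the 32 members, 28, 30, 26, 32, 32, 29 and 26 had a log2 fold change under 0, beside 54.1%, 49.0%, 52.7%, 49.7%, 50.6%, 52.0% and 46.9% of all genes. DESeq2 called 1 member, Ocln for genotype averaged, and limma-trend on TPM called 0.

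By genotype, all 21 endothelial members had negative log2 fold changes in control and under ESD, that is, lower fitted levels in AGR cKO. The median was -0.99 in control and -1.04 under ESD, against -0.012 and 0.0020 over all 19163 genes tested, of which near equal parts were negative and positive. At an unadjusted p under 0.05 lay 1 of 21 in control (Ocln) and 2 of 21 under ESD (Ocln and Itm2a), beside 5.94% and 7.68% of all genes. Averaged over rearing the median was -1.04, with 18 of 21 at an unadjusted p under 0.05, beside 11.3% of all genes. The 21 genes had the same order of libraries in large part, as given above, so the 18 are not separate observations. In control the median was -0.018 without Cre- control 1, and under ESD it was -0.71 without Cre- ESD 1. The averaged median was -0.54 without Cre- control 1. Without Cre- control 2, Ocln and Esam were called in the averaged comparison, with adjusted p of 0.0418 and 0.0427 in edgeR. Under ESD, Esam, Eng and Ocln were lower in each AGR cKO library than in each Cre- library, 3 of 21 or a share near the 9.64% of all genes that did the same. In control none of the 21 was free of overlap, beside 8.39% of all genes. Without more libraries, 3 against 3 allow an exact permutation p no smaller than 0.1 for a single gene.

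Microglial markers and erythroid genes also had lower fitted levels in AGR cKO, while neuron markers differed between rearing conditions. All 20 of 20 microglia and macrophage markers had negative log2 fold changes by genotype in control (median -1.02) and under ESD (median -1.06). Of all genes, 52.7% and 49.7% were negative. At an unadjusted p under 0.05 lay 11 and 14, beside 5.94% and 7.68% of all genes with a negative value. None was called in edgeR (0 and 1 in DESeq2). The markers were measured in the same libraries, so the 11 and the 14 are not separate observations. Their summed CPM ranged from 231 to 521 in AGR cKO control against 409 to 1189 in Cre- control, and from 193 to 507 in AGR cKO ESD against 562 to 959 in Cre- ESD. The 3 libraries with the highest microglial sum were those with the highest endothelial sum, in the same order. Erythroid genes, a sign of blood left in vessels, had negative log2 fold changes by genotype in 5 of 5 in control (median -0.54) and under ESD (median -1.56). Of all genes, 52.7% and 49.7% were negative. At an unadjusted p under 0.05 lay 0 in control and 5 under ESD, and as many were free of overlap, beside 8.39% and 9.64% of all genes. In edgeR 0 were called in both, and in DESeq2 0 and 1. Their summed CPM was 104 to 209 in Cre- control and 82.9 to 138 in AGR cKO control. Under ESD it was 132 to 224 in Cre- and 25.4 to 107 in AGR cKO. Of 18 neuron markers, 1 was negative by genotype in control (median 0.44) and 14 under ESD (median -0.39), beside 52.7% and 49.7% of all genes. EdgeR called 0 of them in both, and DESeq2 called 2 and 1. The part of microglial, blood and neuronal cells in the endothelial difference was not tested.

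**Figure D3:**
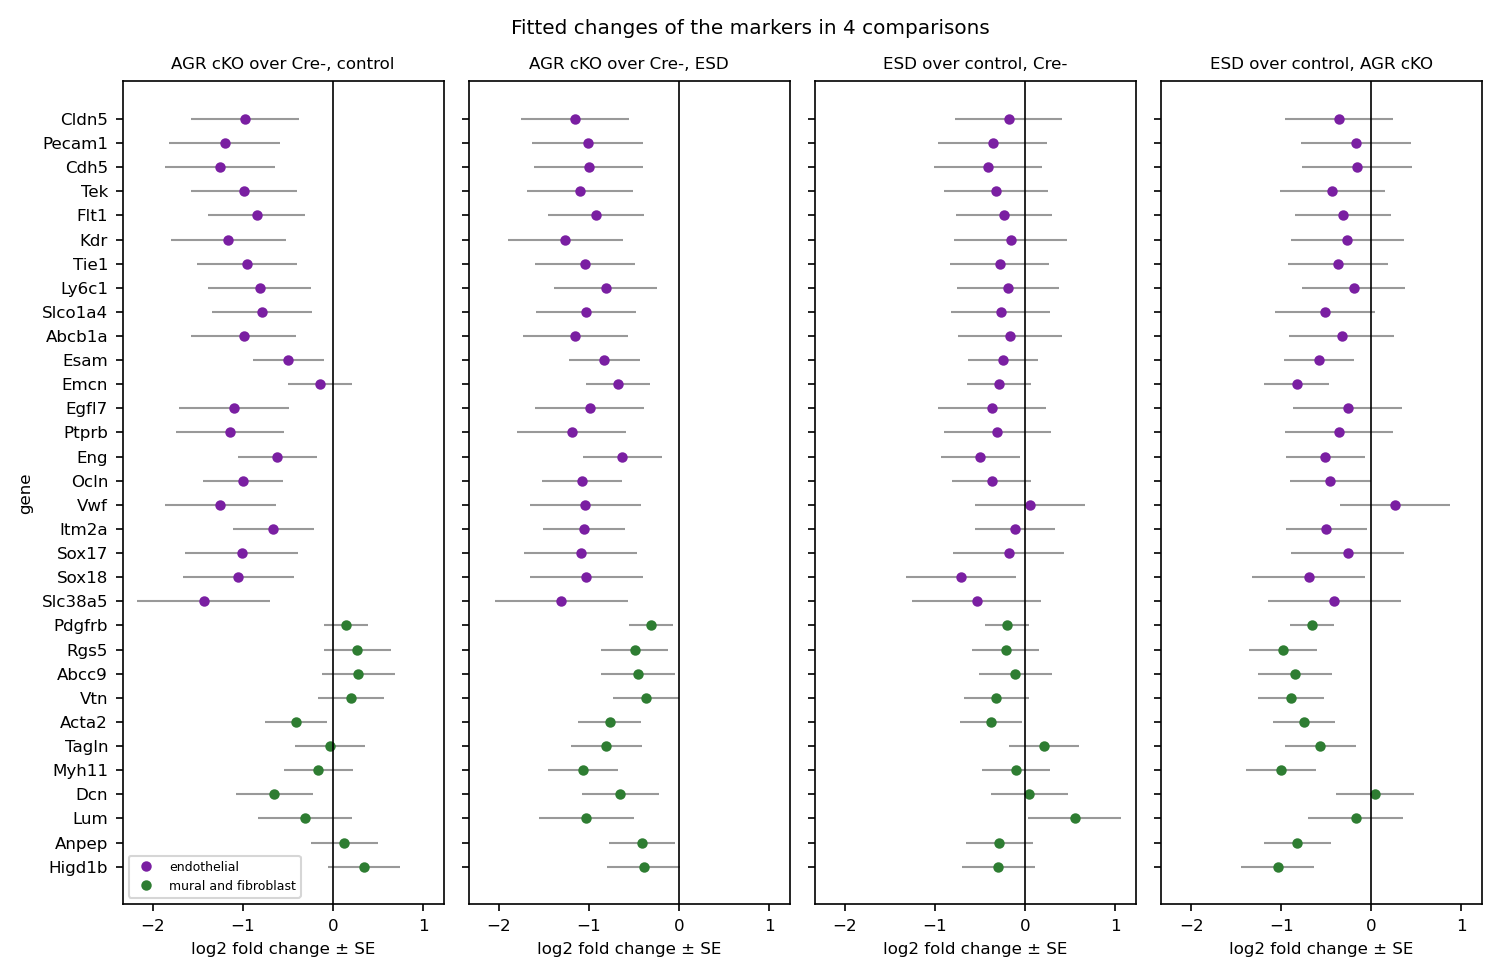
Each point is a member's fitted log2 fold change with its SE, by genotype in the left pair of panels and by stress in the right pair, endothelial genes in purple and mural and fibroblast genes in green. Endothelial points lie left of 0 in both genotype panels, and 10 of 11 green points lie left of 0 for ESD over control in AGR cKO; none was called.

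By stress, the median log2 fold change of the endothelial members was -0.28 in Cre- and -0.36 in AGR cKO, with 20 of 21 negative in each. At an unadjusted p under 0.05 lay 0 of 21 in Cre- and 1 in AGR cKO, Emcn at -0.83 ± 0.36 (adjusted p = 0.656 in edgeR), beside 4.49% and 4.33% of all genes. The sign of these medians depended on single libraries. In Cre- the median was 0.69 without Cre- control 1 and 0.03 without Cre- ESD 3, and in AGR cKO it was 0.03 without AGR cKO control 3 and -0.10 without AGR cKO ESD 1. Averaged over genotype it was -0.31, and 0.18 without Cre- control 1. The interaction of genotype and stress had a median of -0.08 over the 21 genes, with 0 at an unadjusted p under 0.05, and a median of -1.004 without Cre- control 1 and 0.31 without Cre- control 2.

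Mural and fibroblast members followed another order of libraries. Cre- ESD 3 was highest for 6 of 11 (Pdgfrb, Abcc9, Vtn, Tagln, Myh11 and Anpep), and AGR cKO ESD 2 lowest for 8 of 11. Ratios of the highest to the lowest library ran from 2.16 for Pdgfrb to 6.13 for Acta2, with a median of 4.53. Summed CPM was 5285, 2671 and 5334 in Cre- control, 3297, 2627 and 5515 in Cre- ESD, 5162, 5583 and 4865 in AGR cKO control and 2740, 1638 and 3988 in AGR cKO ESD. AGR cKO control was the most even group, and its 3 sums all lay above the 3 of AGR cKO ESD.

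Pdgfrb had 664, 433 and 673 CPM in Cre- control, 452, 384 and 707 in Cre- ESD, 639, 677 and 645 in AGR cKO control and 373, 328 and 544 in AGR cKO ESD. Rgs5 had 3121, 1466 and 3154 CPM in Cre- control, 1958, 1546 and 3161 in Cre- ESD, 3136, 3359 and 2845 in AGR cKO control and 1639, 832 and 2271 in AGR cKO ESD. In AGR cKO animals every ESD library was below every control library for both genes, whereas in Cre- animals control and ESD overlapped. The log2 fold change for stress in AGR cKO was -0.65 ± 0.25 for Pdgfrb and -0.98 ± 0.38 for Rgs5, both with an adjusted p of 0.647 in edgeR. The other pericyte members had values of -0.89 ± 0.37 for Vtn, -0.85 ± 0.41 for Abcc9, which encodes a subunit of the KATP channel of pericytes, -0.82 ± 0.37 for Anpep (CD13), a surface peptidase, and -1.04 ± 0.41 for Higd1b, a mitochondrial membrane protein enriched in brain pericytes. In Cre- animals the 6 pericyte genes lay between -0.32 and -0.11.

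Contractile genes mark smooth muscle cells and the arteriolar end of the pericyte range. Acta2, smooth muscle actin, had 57.4, 25.2 and 37.6 CPM in Cre- control, 34.1, 21.2 and 37.0 in Cre- ESD, 32.8, 29.2 and 28.7 in AGR cKO control and 23.3, 9.35 and 21.5 in AGR cKO ESD. Myh11, the smooth muscle myosin heavy chain, had 45.6, 20.4 and 39.0 CPM in Cre- control, 32.2, 19.1 and 46.7 in Cre- ESD, 34.9, 30.2 and 28.9 in AGR cKO control and 16.6, 8.3 and 22 in AGR cKO ESD. Both were free of overlap between rearing conditions in AGR cKO, with AGR cKO ESD 2 the lowest library. Myh11 had log2 fold changes of -1.003 ± 0.39 for stress in AGR cKO (adjusted p = 0.647) and -1.06 ± 0.39 for genotype in ESD (adjusted p = 0.223, both in edgeR). Acta2 had -0.75 ± 0.35 and -0.77 ± 0.35 in these comparisons. Tagln (transgelin), an actin-binding protein of smooth muscle, had -0.57 ± 0.39 and -0.81 ± 0.39.

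Fibroblasts are represented by Dcn and Lum. Dcn (decorin), a matrix proteoglycan, had 35.4, 16.4 and 12.2 CPM in Cre- control, 26.8, 16.1 and 23.2 in Cre- ESD, 16.6, 16.5 and 7.75 in AGR cKO control and 17.5, 16.8 and 7.67 in AGR cKO ESD. Its ranges in the AGR cKO groups, 7.75 to 16.6 and 7.67 to 17.5 CPM, nearly coincided, and its log2 fold change for stress there was 0.04 ± 0.43, the sole value above 0 among the 11 genes. In AGR cKO ESD 2, where 8 of 11 mural and fibroblast members were lowest, Dcn was 2.19 times its level in AGR cKO ESD 3, while Abcc9 was 0.297 times. Lum had a log2 fold change for stress of 0.55 ± 0.52 in Cre- and -0.17 ± 0.53 in AGR cKO.

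For stress in AGR cKO, 10 of 11 mural and fibroblast members had negative log2 fold changes (median -0.82, all genes 0.0039). Those at an unadjusted p under 0.05 were Pdgfrb, Rgs5, Myh11, Higd1b, Vtn and Anpep, 6 of 11 beside 4.33% of all genes, and 0 were called. Those with every ESD library below every control library were Pdgfrb, Rgs5, Abcc9, Vtn, Acta2, Myh11, Anpep and Higd1b, 8 of 11 beside 8.65% of all genes. AGR cKO ESD 2 was the lowest library for 8 of the 11, so the 6 and the 8 are not separate observations. Leaving out AGR cKO ESD 2 gave a median of -0.51, and leaving out AGR cKO ESD 3 gave -1.24. A further 20 pericyte and smooth muscle genes gave 20 of 20 negative (median -0.81), 13 at an unadjusted p under 0.05, 15 free of overlap and 0 called. They were listed with earlier results of these data known and measured in the same libraries, so they are not independent of the 11. In Cre- animals the mural and fibroblast median for stress was -0.20 with 8 of 11 negative, 0 at an unadjusted p under 0.05 and 0 free of overlap, beside 6.39% of all genes. The interaction, which tests whether stress acted differently in the genotypes, had a median of -0.72, and for each of the 11 genes an adjusted p of 0.999 or above in edgeR, with 0 at an unadjusted p under 0.05. That median was -0.27 without Cre- ESD 3. Neuron markers moved with the mural genes for stress in AGR cKO, with 16 of 18 negative (median -0.76), beside 49.0% of all genes. Of them 9 lay at an unadjusted p under 0.05, beside 4.33% of all genes, and edgeR called 0 and DESeq2 2. The summed CPM of the neuron list was 606 to 671 in AGR cKO ESD, against 618 to 704 in AGR cKO control. Erythroid genes had 5 of 5 negative there (median -0.85), with 1 at an unadjusted p under 0.05 and 0 called. They summed to 25.4 to 107 CPM in AGR cKO ESD, against 82.9 to 138 in AGR cKO control. The part of both lists in the mural difference was not tested.

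By genotype in control, the median over mural and fibroblast members was 0.13, with 5 of 11 negative. The 6 pericyte genes lay between 0.13 and 0.35. Without Cre- control 2 the median was -0.12. Under ESD the median was -0.49 with 11 of 11 negative, and it was -0.15 without Cre- ESD 3 and -0.18 without AGR cKO ESD 2. At an unadjusted p under 0.05 lay 0 of 11 in control and 2 under ESD, Myh11 and Acta2, beside 5.94% and 7.68% of all genes. Averaged over rearing the median was -0.14, and 0.06 without Cre- ESD 3. The difference between the endothelial and the mural medians was not tested.

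**Figure D4:**
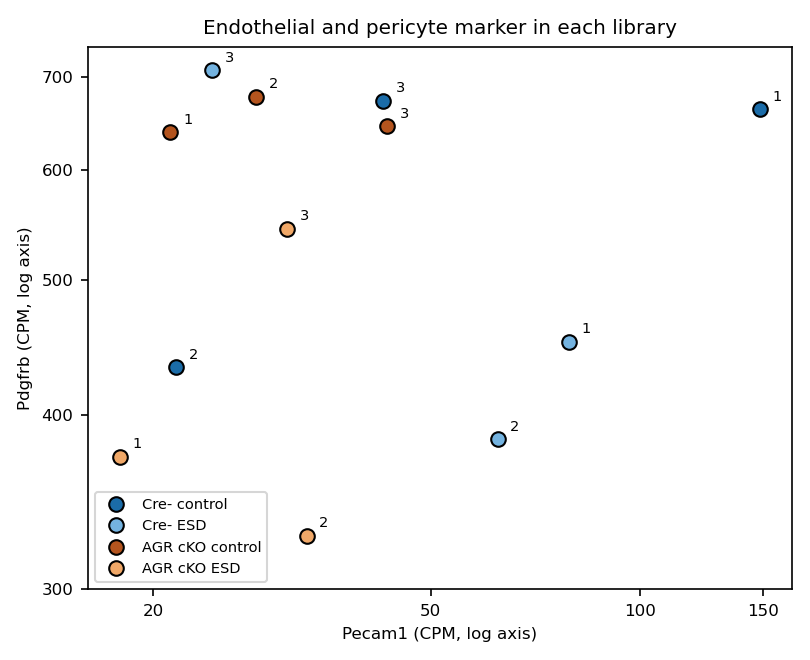
Each point is a library, with Pecam1 on the x axis and Pdgfrb on the y axis, both in CPM on log axes, coloured by group and numbered by replicate. Pecam1 spans 17.9 to 149 CPM while Pdgfrb spans 328 to 707 CPM, and libraries of like Pdgfrb differ widely in Pecam1.

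The ratio of mural to endothelial markers varied between libraries of the same group. Pdgfrb over Pecam1 in CPM was 4.47 in Cre- control 1, 5.71 and 6.16 in Cre- ESD 1 and 2, 29.1 in Cre- ESD 3 and 30.2 in AGR cKO control 1. Summed over the lists, the ratio of mural and fibroblast to endothelial CPM ran from 1.54 in Cre- control 1 to 7.94 in AGR cKO control 1. Cre- ESD 1, Cre- ESD 2 and AGR cKO ESD 2 had low ratios as well, at 1.62, 1.61 and 1.88, while the 3 AGR cKO control libraries lay at 3.64 to 7.94. Between Cre- ESD 3 and Cre- ESD 1, libraries of one group, 20 of 21 endothelial members were lower in the former (median ratio 0.373) and 9 of 11 mural and fibroblast members higher (median ratio 1.57). 

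**Figure D5:**
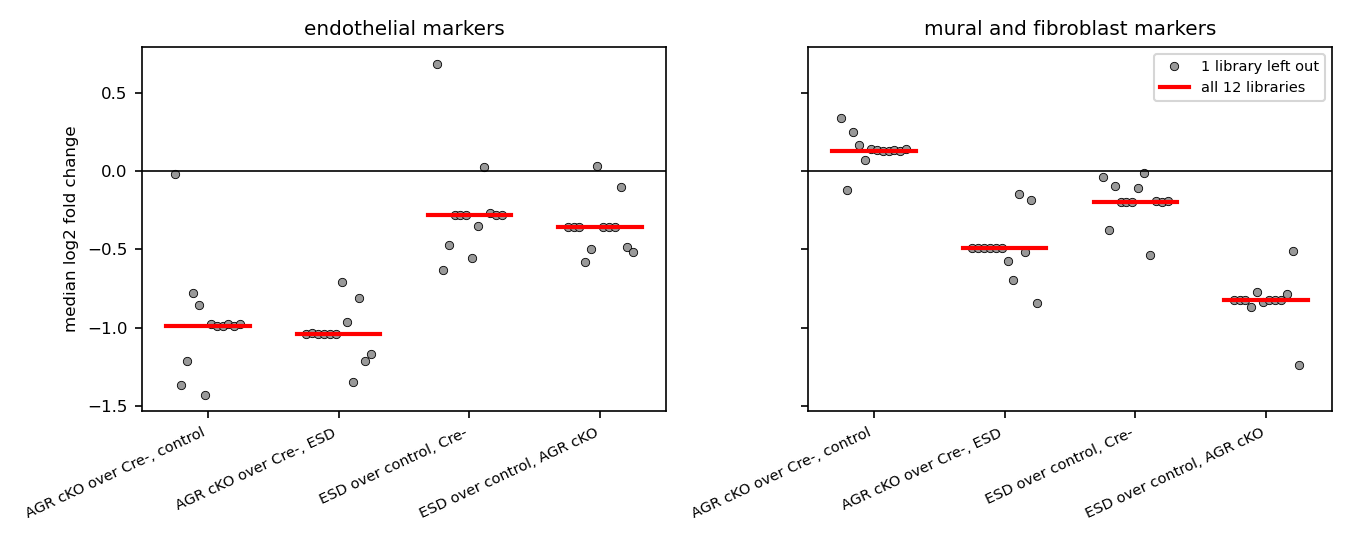
Red lines are median log2 fold changes of the endothelial members (left) and of the mural and fibroblast members (right) with all 12 libraries, and grey points the same with 1 library left out, for 4 comparisons. The endothelial genotype median in control moves from -0.99 to -0.018 without Cre- control 1, while the mural stress median in AGR cKO stays between -1.24 and -0.51.

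Genes of the same biology outside the panel were counted from lists set for this report. Of 24 other endothelial genes, 23 were negative by genotype in control and 24 under ESD (medians -0.95 and -0.98), with 0 called in edgeR. Of all genes, 52.7% and 49.7% were negative. Their summed CPM was 438, 758 and 2018 from lowest to highest Cre- control library, against 440 to 819 in AGR cKO control. These 24 genes were measured in the same libraries, so they are not independent of the 21 endothelial members. Among 19 barrier and transport genes, Mfsd2a fell, a lysophospholipid transporter known for its role in endothelial barrier function. Its CPM was 260.1, 316 and 265 in Cre- control, 240.1, 201 and 474 in Cre- ESD, 103, 107 and 141 in AGR cKO control, and 88.0, 93.0 and 148 in AGR cKO ESD. The genotypes did not overlap, and its log2 fold change was -1.37 ± 0.21 averaged over rearing (adjusted p = 0.00802) and -1.48 ± 0.30 under ESD (0.0438, both in edgeR). The averaged call held with each library left out (adjusted p at most 0.0349), and the ESD call was kept only without Cre- control 1 or Cre- ESD 2 (the other 10 fits reached up to 0.159). Its highest library was Cre- ESD 3, at 474 CPM, where the endothelial members summed to 782 CPM. In Cre- control 1, where they summed to 3435 CPM, it had 260.1 CPM, above each AGR cKO library. Whether its difference goes with endothelial content was not tested. Mfsd2a was the only call of that list in edgeR, whereas DESeq2 called 2 in each of these comparisons. Of all genes, edgeR called 1.04% under ESD and 3.49% averaged.

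Among 21 ligands that act on vessels, 20 of them tested, Wnt7a and Vegfa were called in edgeR, while DESeq2 called 5 under ESD and 4 averaged. Wnt7a, a Wnt ligand that drives brain angiogenesis and barrier formation, rose from 47.7 ± 14.9 CPM in Cre- ESD to 92.1 ± 5.52 CPM in AGR cKO ESD (SD, n = 3), a log2 fold change of 0.95 ± 0.18 (adjusted p = 0.0369), and by 0.62 ± 0.12 averaged over rearing (0.0244, both in edgeR). Each AGR cKO library, at 87.1 to 98.5 CPM, was above each Cre- library, at 31.9 to 80.9 CPM. Vegfa, the main angiogenic ligand of Kdr, rose from 619 ± 44.2 to 832 ± 49.1 CPM under ESD (log2 fold change 0.43 ± 0.09, adjusted p = 0.0459 in edgeR). For genotype in control, neither Wnt7a nor Vegfa had an unadjusted p under 0.05 in edgeR. Both had one for stress in Cre-, with negative values, and for the interaction, with positive values, though neither was called there. Reck, the partner that lets endothelium read Wnt7a, fell by 0.65 on the log2 scale averaged over rearing (SE 0.14, adjusted p = 0.0283 in edgeR), with 26.2 to 31.2 CPM in AGR cKO and 32.8 to 71.0 CPM in Cre-. It was the only call among 20 receptors and partners in edgeR, while DESeq2 called 1 under ESD and 4 averaged. Over all genes edgeR called 1.04% under ESD and 3.49% averaged, so 1 call among 20 genes is near the averaged share. With a single library left out, the averaged Wnt7a call was lost without Cre- control 3, AGR cKO ESD 1 or any AGR cKO control library (adjusted p up to 0.0699), and its ESD call without these, Cre- ESD 1, AGR cKO ESD 2 or AGR cKO ESD 3 (up to 0.128). The Vegfa call was kept only without Cre- control 1 (otherwise up to 0.145). The Reck call was lost without Cre- control 1, AGR cKO ESD 1 or 2, or any AGR cKO control library (up to 0.0821). Of the 20 further pericyte and smooth muscle genes, Synpo2, an actin-binding protein of muscle, fell by 0.73 on the log2 scale averaged over rearing (SE 0.14, adjusted p = 0.0214) and by 1.04 under ESD (SE 0.20, 0.0393, both in edgeR). The averaged call was lost without AGR cKO control 2, AGR cKO control 3 or AGR cKO ESD 1 (up to 0.0711), and the ESD call was kept only without Cre- control 1 or Cre- ESD 2 (otherwise up to 0.146). The 4 calls under ESD, of Mfsd2a, Wnt7a, Vegfa and Synpo2, were all lost with only the groups compared, and limma-trend on TPM did not call Synpo2 or Vegfa with 1 or 0.1 added, nor Mfsd2a with 1 added.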

How the data were processed

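Counts, FPKM and TPM per gene were deposited by the authors, with column names that give each unit per the file headers. Per the submitters' processing notes the build was mm10 and the tools were StringTie 1.3.4b, HISAT2 2.1.0, Bowtie2, HISAT, DESeq2 and Trimmomatic, with no role given, so how whole counts arose and whether strand was used are not given in the sources used here. The deposited transcript table gives the same 3 units per transcript (129299 rows), and only its TPM were used. FPKM were not analysed. Libraries were made from 1 µg of RNA with an RIN above 7.0 by a stranded mRNA kit, per the labels. Columns name Cre as M or P, read here as minus and plus. Genotype labels count upward over replicates (Nr3c1, Nr3c2, Nr3c3 in Cre-, and CreERT2, CreERT3, CreERT4 in AGR cKO), so groups were taken from the titles and the alleles from the first replicates. The labels do not say whether libraries are separate animals or pools, so p-values measure the spread between these libraries.

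Counts were tested in edgeR 4.0.16 (R 4.3.3): filterByExpr, TMM factors (0.956 to 1.05), 1 mean per group, all 12 libraries, 8 residual degrees of freedom, quasi-likelihood tests and Benjamini-Hochberg adjustment over 19163 genes at 0.05. An SE is the log2 fold change divided by the root of F. Alternatives were DESeq2 1.42.0, other size factors, no filter, only the groups compared, a replicate block, each library left out, and limma-trend 3.58.1 on log2 TPM plus 1 or 0.1. Members, roles, tests and the 15 lists (257 genes, 254 tested) were chosen with earlier results of these data known. Genes given in every library were picked as at least 1 per role, and from each other list the called genes were named, at most 4, and otherwise at most 2 with the smallest p. Reads of Ly6c1 and Ly6c2, and of Abcb1a and Abcb1b, may be shared, and 9 members overlap another annotated gene. Intervals and spreads do not cover amplification error, since reads carried no molecular identifiers.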

Additional observations from a re-analysis of the deposited data

How the results depend on the processing

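The count of called members stayed at 0 in edgeR with RLE or upper-quartile factors, without the low-count filter, with only the groups compared and in limma-trend on TPM, in each comparison where the setting could be run. For genotype averaged over rearing it was 1 in DESeq2 and 0 to 2 with a library left out; it was 0 in those fits elsewhere. With a library left out, the endothelial median log2 fold change ran from -0.63 to 0.69 for stress in Cre-, -0.58 to 0.03 for stress in AGR cKO, -1.43 to -0.018 for genotype in control, -1.35 to -0.71 for genotype in ESD, -1.27 to -0.54 for genotype averaged, -0.51 to 0.18 for stress averaged and -1.004 to 0.31 for the interaction. The mural and fibroblast median ran from -0.54 to -0.012, -1.24 to -0.51, -0.12 to 0.34, -0.84 to -0.15, -0.34 to 0.06, -0.72 to -0.40 and -0.95 to -0.27 in the same order. The averaged and interaction comparisons use all groups, so no fit on fewer groups was made for them. Over all genes, calls for genotype in ESD ran from 0 (only the groups compared) to 817 (DESeq2), against 200 in the reported fit, for genotype in control from 0 to 273 against 3, and for genotype averaged from 151 to 1729 against 668; for comparisons with 0 calls they reached 26 (stress in Cre-), 23 (stress in AGR cKO), 38 (stress averaged) and 9 (interaction). The cause was not tested.

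Whether replicate numbers pair the libraries was not settled. Of 18 pairs with the same number, 7 had a correlation of deviations over 0.1 (median 0.038, range -0.104 to 0.227). For other pairs the median was -0.0027. The highest values were 0.227 and 0.183 for pairs with the same number, and 0.167 for other pairs. Over all genes the replicate block gave 799 calls for genotype averaged (668 without it), 244 for genotype in ESD (200) and 2 for genotype in control (3). With the replicate block 0 members were called in all 7 comparisons, and the endothelial medians by genotype were -0.84 in control and -0.99 under ESD. The SE of an endothelial log2 fold change by genotype in control was 0.35 (Emcn) to 0.74 (Slc38a5).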

Other observations

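Flt1 gave 2 main transcripts in the authors' transcript estimates. The full-length transcript, NM_010228, took 49.8% of the gene's TPM and a shorter one, NM_001363135, 48.4%. The shorter one spans chr5:147635159-147726011 and the longer one chr5:147561604-147726011 (mm10), so the shorter lacks the far end of the gene; a short, soluble form of this receptor is known to bind VEGF without signalling. The share of the shorter transcript was 49.4% ± 2.35 in Cre- control, 48.3% ± 1.93 in Cre- ESD, 47.1% ± 1.34 in AGR cKO control and 51.4% ± 4.72 in AGR cKO ESD (SD, n = 3), with ranges that overlapped between all groups. The share ran from 45.6% to 56.6%, while the gene's CPM ran from 58.6 to 408.

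Genes of larger or specialised vessels and of fibroblasts gave these values. Of 16 arterial, capillary and venous genes, 13 were negative by genotype in control (median -0.43) and 13 under ESD (median -0.59), with 0 called in edgeR and 1 under ESD in DESeq2. At an unadjusted p under 0.05, 2 were lower and 0 higher in control, beside 5.94% and 4.28% of all genes, and 3 lower and 2 higher under ESD, beside 7.68% and 7.92%. Alpl, an alkaline phosphatase, had a log2 fold change of 0.49 ± 0.12 under ESD (adjusted p = 0.0919 in edgeR), and Nr2f2, a venous transcription factor, -0.63 ± 0.20 for stress in AGR cKO (0.647). Among 18 fibroblast and meningeal genes, 17 of them tested, 14 were negative for stress in AGR cKO (median -0.35) with 0 called, and Igf2, a growth factor of meninges and vessels, stood at -0.91 ± 0.26 (adjusted p = 0.647 in edgeR). Its level was 516 to 674 CPM in AGR cKO control and 278 to 362 CPM in AGR cKO ESD. Tbx3 and Foxf2, transcription factors on the list of other endothelial genes, had log2 fold changes of -0.81 ± 0.28 and -0.85 ± 0.30 in that comparison (adjusted p = 0.647 for both). Foxf2 is also known in pericytes.

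Lists of the remaining cell types gave these values. Among 20 astrocyte markers, Id3 and Aqp4 rose and Acsl3, Gjb6 and Aldoc fell by genotype averaged over rearing, with log2 fold changes of 0.28 ± 0.05 for Id3, a transcriptional inhibitor, and 0.50 ± 0.11 for Aqp4, the water channel of endfeet (adjusted p = 0.0143 and 0.0315 in edgeR). Gjb6, the gap junction protein connexin 30, fell by 1.14 on the log2 scale (SE 0.22, adjusted p = 0.0218 in edgeR). Without AGR cKO control 2, Id3 (0.0514) and Acsl3 were not called, nor were Gjb6 and Aqp4 when any of the AGR cKO control libraries or AGR cKO ESD 1 was left out; the Aqp4 call was also lost without Cre- control 3 or AGR cKO ESD 2. The Aldoc call was kept only without Cre- control 1. Of 10 ependymal and choroid plexus markers, Dynlrb2, Tmem212, Rarres2 and Ccdc153 fell in that comparison, with adjusted p of 0.0112 to 0.0226 in edgeR, and the first 2 kept their call with each library left out. Rarres2 and Ccdc153 were not called without AGR cKO control 2 or AGR cKO ESD 1. The edgeR calls were thus 5 of 20 astrocyte and 4 of 10 ependymal and choroid plexus markers, beside 3.49% of all genes. Among 14 oligodendrocyte and precursor markers, 13 of them tested, 8 were negative by genotype in control (median -0.11) and 10 under ESD (median -0.21). In edgeR 0 were called in both, and DESeq2 called 0 and 3. At an unadjusted p under 0.05, 1 was lower and 2 higher in control, beside 5.94% and 4.28% of all genes, and 2 lower and 3 higher under ESD, beside 7.68% and 7.92%. Cnp, an enzyme of myelin, had a log2 fold change of 0.37 ± 0.10 for stress in AGR cKO, and Mobp, a myelin protein, 0.94 ± 0.30 for stress in Cre- (adjusted p = 0.647 and 0.627 in edgeR). Ptprc, the leukocyte antigen CD45, and Cd163, a receptor of perivascular macrophages, had log2 fold changes of -1.08 ± 0.44 and -1.20 ± 0.40 by genotype under ESD (0.266 and 0.188 in edgeR). The neuronal genes Slc17a7 and Syt1 had -1.80 ± 0.33 and -1.51 ± 0.35 for stress in AGR cKO (both 0.647), and the globin genes Hbb-bt and Hbb-bs had -1.63 ± 0.47 and -1.56 ± 0.46 by genotype under ESD (0.138 and 0.140). Fbln1, a matrix protein of fibroblasts, had 0.42 ± 0.14 for stress in AGR cKO (0.647).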
